A study of Gallus gallus with 18 samples.

Results

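The voltage-gated sodium, potassium and calcium channel genes of the embryonic chick trigeminal ganglion are described here over 3 stages of its development. Members were the rows of the deposited gene count table whose symbol begins with SCN and a digit, KCN, CACN, or HCN and a digit, and whose mean was at least 0.5 CPM (counts scaled to a common library size) over 9 pools of ganglia. Of 30108 rows, 115 carried such a symbol and 93 of these met the level floor. The pattern takes in more than voltage-gated channels, since KCNJ, KCNK, KCNN and KCNT genes encode inward rectifier, tandem-pore-domain, calcium-activated and sodium-activated potassium channels, which voltage does not open in the usual sense, and several symbols encode auxiliary subunits. The group is therefore wider than its name.

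The trigeminal ganglion is the main sensory ganglion of the face. Poly(A)-enriched RNA was sequenced from pooled ganglia of wildtype Gallus gallus embryos at HH13-14, HH15-16 and HH17-18, stages of the Hamburger-Hamilton series, which orders chick embryos by external form. Each stage had 3 biological replicates (pools), and each pool had 2 technical replicates, which were summed. No treatment or allele separates the groups, and the labels do not give the number of embryos in a pool. The p-values set differences between stages against the spread between pools of a stage, estimated over all 9 pools.

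Channel proteins set how an excitable cell fires. Sodium channel alpha subunits form the pore that carries the upstroke of the action potential, potassium channels bring the membrane back to rest and hold it there, and calcium channels couple depolarization to calcium entry. HCN channels open on hyperpolarization and help to pace firing. Beta, alpha2delta, gamma and other auxiliary subunits alter the trafficking and gating of the pores, and in mammals some gamma subunits instead serve glutamate receptors of the AMPA type. In a young sensory ganglion these genes are of interest because neurons become excitable while the ganglion is still condensing from neural crest and placode cells, and because muscle, vessel and mesenchyme cells around it use channels of their own.

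Pools held 53458986 to 68083147 counts. Replicate 1 of HH15-16 stood apart from the other pools of its stage, with a chi-square statistic per degree of freedom of 56.7 and 63.1 against them, where those others gave 30.4 against each other. Its neural crest and glia precursor markers summed to 229 CPM and its head mesenchyme markers to 1311 CPM, the lowest of the 9 pools in both cases. It is in neither arm of the comparison of the outer stages but enters the estimate of spread. Neuron markers fixed as a list were present at every stage, with 11 of 12 in the table and sums of 1164 to 1199 CPM at HH13-14, 924 to 1305 at HH15-16 and 1213 to 1933 at HH17-18. In bulk samples, more cells of a type and more RNA per cell cannot be told apart.

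Between the outer stages, HH13-14 and HH17-18, 9 of the 93 channel genes passed an adjusted p of 0.05 in edgeR's quasi-likelihood test. Higher at HH17-18 were 4 of them, namely CACNG3, KCNJ2, CACNA1C and KCNJ8. Lower were 5, among them KCNH5, KCNAB1, KCNJ3 and KCNN3. All 5 that fell and 2 of the 4 that rose encode subunits of potassium channels, which make up 63 of the 93 genes (67.7%). The share of channel genes past the threshold was 9.68%, where 4.51% of all 17724 genes tested passed (2.40% higher and 2.12% lower). In log2 fold change 54 of the 93 (58.1%) lay above 0, against 52.8% of all genes, and the median was 0.10 against 0.02.

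**Figure D1:**
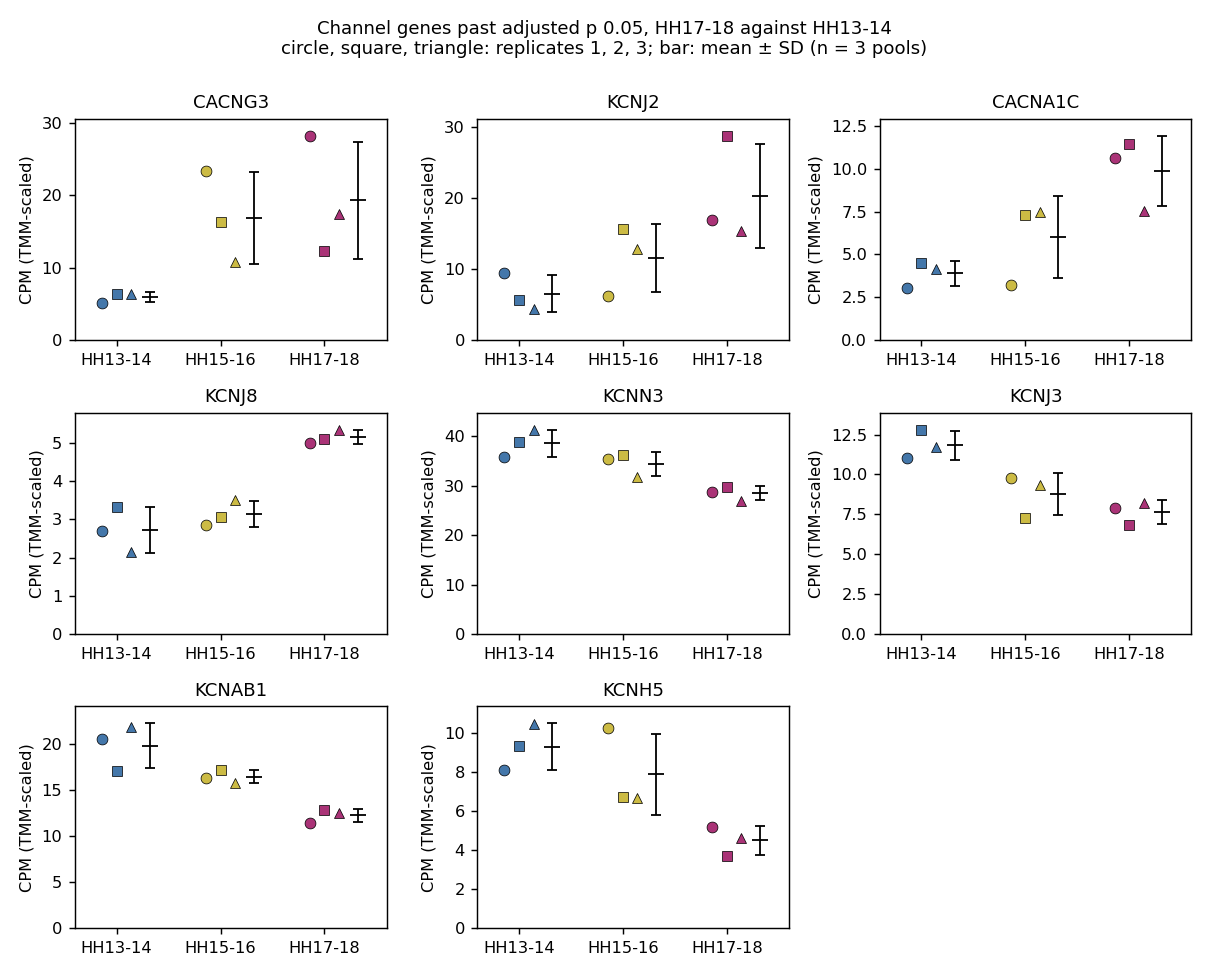
TMM-scaled CPM (linear axes from 0) of 8 channel genes past adjusted p 0.05 between the outer stages, by stage. Each point is a pool, marked by its replicate number, and the bar is the mean ± SD of 3 pools. In every panel the pools of HH17-18 and those of HH13-14 do not overlap, while the pools of HH15-16 overlap an outer stage.

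The number of calls depended on the pools and on the tool, among the channel genes and over the whole table. Without replicate 1, 2 or 3 of HH13-14 there were 0, 1 and 0 channel genes past the threshold, where 0.539%, 0.658% and 0.582% of all genes passed in the same fits. Without replicate 1, 2 or 3 of HH17-18 there were 3, 3 and 1, where 3.58%, 1.60% and 0.975% of all genes passed. Of these channel genes 3, 2 and 0 were among the 9. The signs of all 9 log2 fold changes were kept in these fits. Without replicate 1 of HH15-16 there were 14 (15.1%), which included the 9, and 8.30% of all genes passed. The DESeq2 test gave 18 channel genes (19.4%) where it passed 10% of all genes (1805 of 18035), and limma voom with sample weights gave 14 (15.1%) where it passed 9.84%, again with the 9 among them. At an unadjusted p under 0.05, 20 channel genes were higher and 10 lower, which is 32.3% of them, where 21.6% of all genes passed (11.8% higher and 9.83% lower).

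CACNG3 encodes a gamma subunit that in mammals accompanies AMPA receptors. Its levels were 5.14, 6.39 and 6.41 CPM in the pools of HH13-14, 23.4, 16.4 and 10.8 at HH15-16, and 28.2, 12.4 and 17.5 at HH17-18. All pools of the later stages lay above all pools of HH13-14, and the pools of HH15-16 and HH17-18 overlapped. The log2 fold change between the outer stages was 1.70 (SE 0.33, adjusted p 0.0234 in edgeR), the largest rise among the 93. Most of it fell in the earlier step, at 1.5 (SE 0.32), which missed the threshold in edgeR (adjusted p 0.417) and passed in DESeq2 (adjusted p 0.00175). The gene (ENSGALG00010018359) spans chr14:6749026-6766731 on GRCg7b in RefSeq. Within the later stages the pools high in CACNG3 were those with high sums of the 7 neural tube markers. These sums were 576, 310 and 240 CPM at HH15-16 and 433, 191 and 394 at HH17-18. This did not hold for each marker, since OLIG2 had 0.153, 1.06 and 2.3 CPM at HH17-18. At HH13-14 the sums were 335, 288 and 278 CPM, so the first of these pools had more of the markers and less CACNG3. None of the 7 markers passed the threshold between the outer stages, and none was at 0. Their log2 fold changes were 1.17 (HES5), 0.17 (FABP7), -0.12 (SOX1), -0.13 (SOX2), -0.21 (OLIG2), -0.34 (NKX2-2) and -1.71 (PAX6). Their part in the rise of CACNG3 was not tested.

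KCNJ2 encodes a strong inward rectifier that helps to hold the resting potential. It had 9.50, 5.74 and 4.46 CPM at HH13-14, 6.25, 15.6 and 12.9 at HH15-16, and 16.9, 28.7 and 15.3 at HH17-18. The pools of the outer stages did not overlap, and at HH15-16 replicate 1 lay within the range of HH13-14 while the other two lay above it. KCNJ2 rose by a log2 fold change of 1.63 (SE 0.38, adjusted p 0.0409 in edgeR). KCNJ2 (ENSGALG00010029768) lies at chr18:8819312-8829448 on GRCg7b.

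CACNA1C encodes the pore of the L-type calcium channel found in heart and smooth muscle and in many neurons. Its pools had 3.07, 4.49 and 4.13 CPM at HH13-14, 3.24, 7.31 and 7.49 at HH15-16, and 10.6, 11.4 and 7.52 at HH17-18. Here too the outer stages were apart, and replicate 1 of HH15-16 was the low pool of its stage, within the range of HH13-14. This amounted to 1.34 on the log2 scale (SE 0.31, adjusted p 0.0401 in edgeR). The gene (ENSGALG00010014295) spans chr1:61191807-61664366 on GRCg7b.

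KCNJ8 encodes the pore of an ATP-sensitive potassium channel best known from vessel walls. It had 2.69, 3.33 and 2.14 CPM at HH13-14, 2.85, 3.05 and 3.5 at HH15-16, and 4.99, 5.10 and 5.34 at HH17-18. Every pool of HH17-18 lay above every pool of both earlier stages, which overlapped. On the log2 scale KCNJ8 rose by 0.92 (SE 0.21, adjusted p 0.0360 in edgeR), of which 0.72 was in the later step. KCNJ8 (ENSGALG00010013173) lies at chr1:67006399-67014250 on GRCg7b.

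Markers of the cell types around the ganglion were set beside these rises. Smooth muscle and pericyte markers (4 of 5 tested) summed to 260 to 329 CPM at HH13-14, 204 to 402 at HH15-16 and 233 to 359 at HH17-18, and 0 of them passed the threshold. Between the outer stages the 4 tested had log2 fold changes of -0.77 (TAGLN), -0.03 (ACTA2), 0.27 (MYH11) and 0.3 (PDGFRB). The marker not tested was RGS5, a pericyte marker with only 16 counts in all. It was at 0 in all pools of HH13-14 and at a mean of 0.0681 CPM at HH17-18. Skeletal and heart muscle markers (8 of 12 tested) summed to 54.3 to 64.3, 48.3 to 64.6 and 46.1 to 51.0 CPM over the stages, again with 0 past the threshold. Head mesenchyme markers (5 of 6 in the table) summed to 1962 to 2120 CPM at HH13-14, 1311 to 2644 at HH15-16 and 2084 to 3319 at HH17-18, with 0 past the threshold. Their low pool of HH15-16 was replicate 1, as for KCNJ2 and CACNA1C, and their high pool of HH17-18 was replicate 2, as for the same genes. This was not particular to head mesenchyme. The same pools were low and high for the smooth muscle and pericyte, skeletal and heart muscle, endothelium, neural crest and glia precursor, and surface ectoderm lists. All 3 macrophage markers rose, from sums of 3.40 to 6.10 CPM to sums of 18.6 to 58.4. Blood markers (4 of 6 in the table) summed to 614 to 854 CPM at HH13-14, 590 to 1332 at HH15-16 and 1137 to 1764 at HH17-18. HBZ and HBAD passed the threshold, with log2 fold changes of 1.13 and 1.08. HBA1 and HBBA had 1.05 and 0.96, with adjusted p-values from edgeR of 0.053 and 0.0963. Endothelium markers (5 of 5 tested) summed to 302 to 349 CPM at HH13-14, 220 to 327 at HH15-16 and 272 to 341 at HH17-18, and 0 passed the threshold. Surface ectoderm markers (5 of 7 in the table) summed to 177 to 192, 151 to 227 and 150 to 213 CPM, with TP63 higher (log2 fold change 1.19, adjusted p 0.0479 in edgeR) and EPCAM lower (-0.43, adjusted p 0.0370 in edgeR). The part of these cells in the channel results was not tested.

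**Figure D2:**
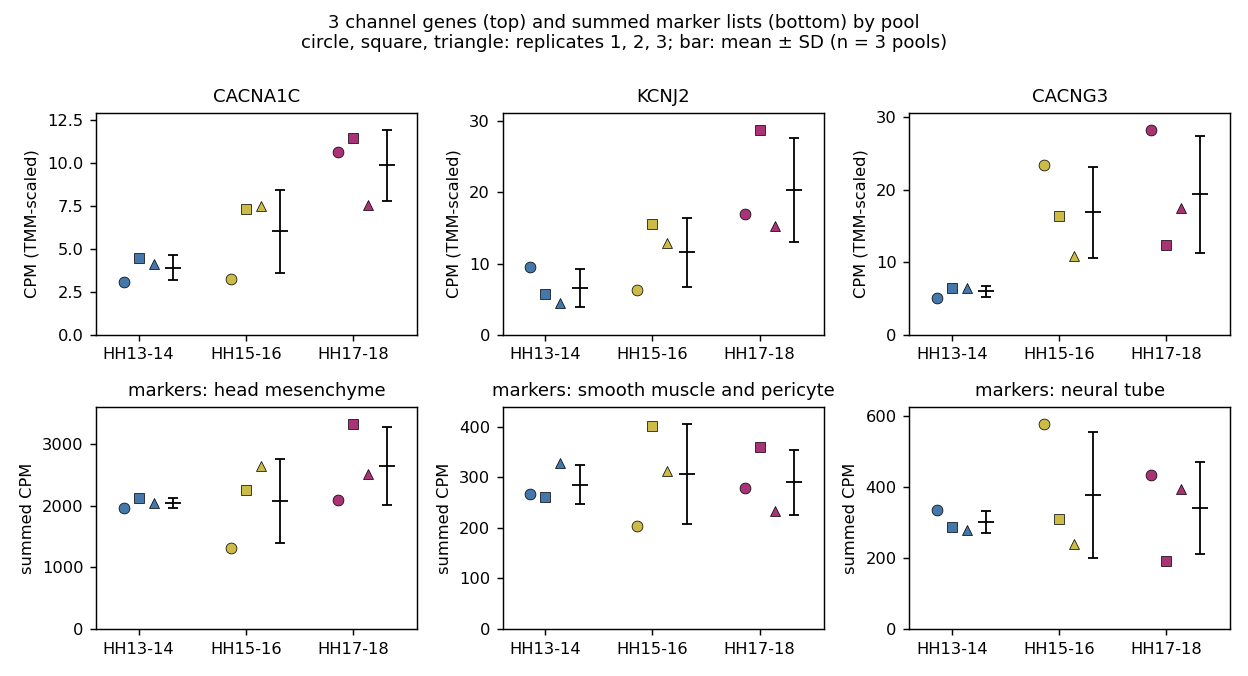
TMM-scaled CPM of CACNA1C, KCNJ2 and CACNG3 (top) and the summed CPM of 3 marker lists (bottom) by stage, on linear axes from 0. Points are pools marked by replicate number and bars are the mean ± SD of 3 pools. Replicate 1 of HH15-16 is low in CACNA1C (3.24 CPM) and KCNJ2 (6.25 CPM). It is also low in head mesenchyme markers (1311 CPM) and in smooth muscle and pericyte markers (204 CPM). It is high in CACNG3 (23.4 CPM) and neural tube markers (576 CPM).

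Among the genes that fell, KCNH5 encodes a channel of the ether-a-go-go family. Levels were 8.11, 9.33 and 10.5 CPM at HH13-14, 10.3, 6.71 and 6.69 at HH15-16, and 5.19, 3.69 and 4.63 at HH17-18. All pools of HH17-18 lay below all earlier ones. On the log2 scale the change was -1.04 (SE 0.22, adjusted p 0.0288 in edgeR), with -0.81 in the later step. KCNH5 (ENSGALG00010017743) spans chr5:53008539-53163587 on GRCg7b.

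KCNAB1 encodes a cytoplasmic beta subunit that binds Shaker-type potassium channels and can speed their inactivation. It went from 20.5, 17.1 and 21.8 CPM through 16.3, 17.2 and 15.8 to 11.4, 12.8 and 12.5 CPM. The pools of HH17-18 lay below all others, with little spread among them. Its log2 fold change of -0.70 (SE 0.12) had the smallest adjusted p among the 93, at 0.0180 in edgeR. It missed the threshold in 3 of 18 alternative settings, fewer than any of the other 8 genes. KCNAB1 (ENSGALG00010001520) spans chr9:22596669-22633214 on GRCg7b.

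KCNN3 encodes a small-conductance channel that calcium opens, which lengthens the pause after a spike. Its pools had 35.8, 38.8 and 41.2 CPM at HH13-14, 35.4, 36.2 and 31.7 at HH15-16, and 28.8, 29.8 and 26.9 at HH17-18. The fall was small but larger than the spread, with HH17-18 below all other pools and a log2 fold change of -0.44 (SE 0.10, adjusted p 0.0335 in edgeR). KCNN3 (ENSGALG00010027534) spans chr25:1981961-2008594 on GRCg7b.

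KCNJ3 encodes an inward rectifier that G proteins open. It went from 11.0, 12.8 and 11.7 CPM at HH13-14 through 9.78, 7.28 and 9.31 to 7.93, 6.82 and 8.19 at HH17-18. Both later stages lay below HH13-14, and they overlapped each other. The log2 fold change was -0.63 (SE 0.16) with an adjusted p of 0.0499 in edgeR, just inside the threshold, and it missed the threshold in 11 of 18 alternatives. KCNJ3 (ENSGALG00010010471) spans chr7:35347794-35380498 on GRCg7b. Neural crest and glia precursor markers (8 of 8 tested) summed to 456 to 589 CPM at HH13-14, 229 to 560 at HH15-16 and 266 to 479 at HH17-18, with 1 of them lower. Their part in these falls was not tested.

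**Figure D3:**
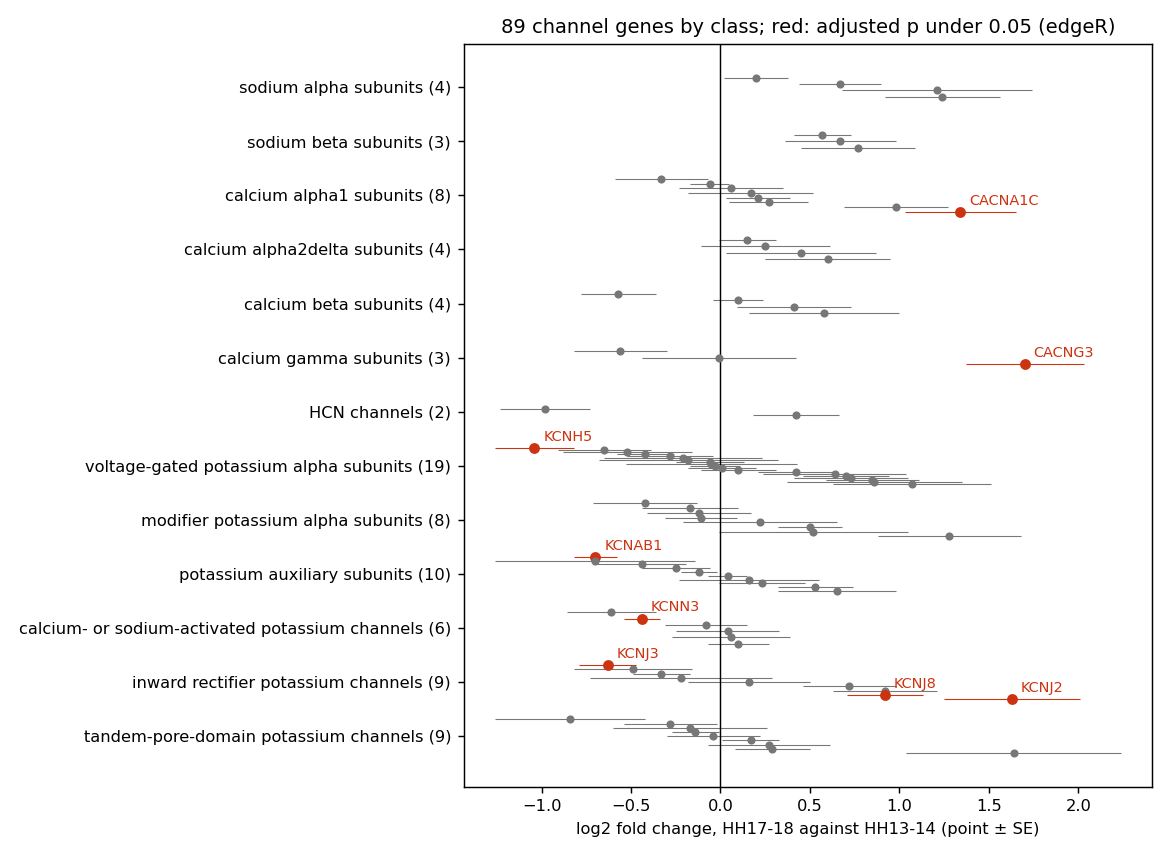
log2 fold change (point ± SE) of 89 channel genes between HH17-18 and HH13-14, grouped by class, with the number of genes drawn in brackets. Red points passed an adjusted p of 0.05 in edgeR, and grey points did not. All 7 sodium channel subunits drawn lie to the right of 0, and the potassium classes lie on both sides of it.

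The sodium channel subunits were 5 alpha and 4 beta subunits. None passed the threshold in the main edgeR fit over the interval, but 5 of 9 had an unadjusted p under 0.05, all higher. Of all genes 11.8% were higher at that p. All 9 log2 fold changes were above 0, with a median of 0.67, and in 5 of 9 the pools of HH17-18 lay above all pools of HH13-14, which held for 16.0% of all genes. The DESeq2 test passed SCN2A, SCN3B and SCN9A, and voom with sample weights passed SCN2A and SCN3B. In edgeR SCN2A passed with at least 10 counts in every pool, on lane 7 alone and without replicate 1 of HH15-16. SCN3B did so with only the stages compared and without replicate 2 of HH17-18.

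SCN2A encodes a pore of central neurons in mammals. It had 0.822, 1.10 and 0.496 CPM at HH13-14, 1.23, 0.925 and 1.35 at HH15-16, and 1.84, 1.83 and 2.06 at HH17-18, with HH17-18 above all other pools. The log2 fold change was 1.24 (SE 0.32, adjusted p 0.0549 in edgeR). SCN9A, known from nociceptors in mammals, had 6.32, 6.86 and 6.02 CPM, then 6.10, 6.07 and 10.1, then 8.07, 9.82 and 12.7 (log2 fold change 0.67, SE 0.23, adjusted p 0.132 in edgeR). SCN3A, a pore prominent in embryonic neurons of mammals, had pools that overlapped between stages and a log2 fold change of 1.21 (SE 0.53, adjusted p 0.221 in edgeR).

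SCN8A, the alpha subunit with the most reads, which clusters at the sites of spike initiation in mature neurons, had 6.68, 7.46 and 7.51 CPM, then 11.0, 10.4 and 7.13, then 7.47, 8.79 and 8.59. Its pools overlapped between the outer stages, and the log2 fold change was 0.20 (SE 0.18, adjusted p 0.573 in edgeR).

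SCN3B, a beta subunit, had 17.6, 17.5 and 17 CPM at HH13-14, 21.1, 24.8 and 18.0 at HH15-16, and 28.2, 20.4 and 28.6 at HH17-18. Both later stages lay above HH13-14, with a log2 fold change of 0.57 (SE 0.16, adjusted p 0.0681 in edgeR). SCN4B and SCN2B had log2 fold changes of 0.77 and 0.67. The summed level of the 5 alpha subunits was 16.8 ± 0.749 CPM at HH13-14, 21.0 ± 0.940 at HH15-16 and 24.3 ± 3.51 at HH17-18 (SD, n = 3). That of the 4 beta subunits was 24.3 ± 1.49, 29.2 ± 3.58 and 33.8 ± 3.39 CPM. Among the neuron markers 3 of 11 tested passed the threshold, all higher (STMN2, NEFM and NEFL), with log2 fold changes of 1.83, 1.22 and 0.89. Of the others, SNAP25 had 1.27, ELAVL4 0.75, POU4F1 0.22, TUBB3 0.14, ISL1 0.09 and SYT1 0.07. PRPH, at -0.19, and NEUROD1, at -0.41, lay below 0. The part of these in the sodium channel values was not tested.

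**Figure D4:**
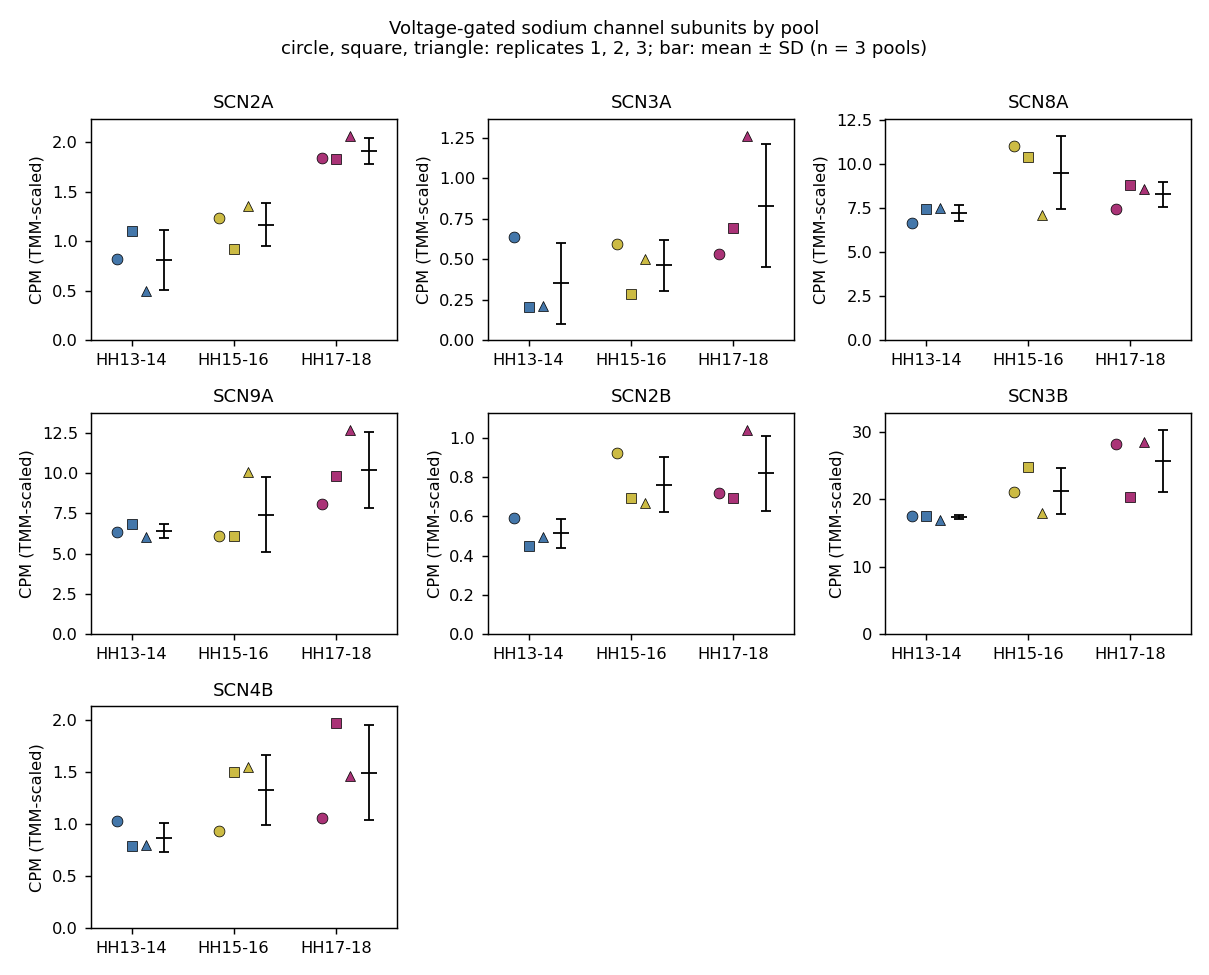
TMM-scaled CPM (linear axes from 0) of 7 sodium channel subunits by stage, alpha subunits first. Points are pools marked by replicate number and bars are the mean ± SD of 3 pools. In SCN2A, SCN9A, SCN2B, SCN3B and SCN4B the pools of HH17-18 lie above all pools of HH13-14. None of the 7 genes passed the threshold in the main edgeR fit.

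Of the 19 calcium channel genes, CACNA1C and CACNG3 (10.5%) passed the threshold, both higher, where 4.51% of all genes passed and 2.40% were higher. The alpha1 subunit with the most reads was CACNA1G, the pore of a T-type channel that opens near the resting potential. It stayed within 58.3 to 76.0 CPM over the outer stages and overlapped fully, with 62.8, 76.0 and 68.6 CPM at HH13-14, 62.5, 67.3 and 70.5 at HH15-16, and 58.3, 76.0 and 64.6 at HH17-18. Between the outer stages CACNA1G differed by a log2 fold change of -0.06 (SE 0.11, adjusted p 0.799 in edgeR). CACNA1H, another T-type pore, had 0.27, the R-type CACNA1E 0.21 and the L-type CACNA1D 0.06, with adjusted p-values from edgeR of 0.538, 0.550 and 0.932.

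CACNA1B, the N-type pore of presynaptic terminals, had 2.31, 2.39 and 2.04 CPM at HH13-14, 1.70, 2.70 and 3.30 at HH15-16, and 3.14, 4.61 and 5.57 at HH17-18. The outer stages did not overlap, and the log2 fold change of 0.98 (SE 0.29) had an adjusted p of 0.0848 in edgeR. DESeq2 (adjusted p 0.0120) and voom with sample weights (adjusted p 0.0304) placed it past the threshold. So did edgeR with only the stages compared and without replicate 1 of HH15-16. CACNA1S, the skeletal muscle pore, was near the level floor, at 0.602, 0.558 and 0.674 CPM over the stages.

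All 4 alpha2delta subunits had log2 fold changes above 0, from 0.15 to 0.60, and 0 passed the threshold. CACNA2D2, with the most reads, had 36.2, 35.4 and 33.3 CPM, then 24.8, 41.1 and 36.4, then 36.0, 41.7 and 38.7. Its stages overlapped (log2 fold change 0.15, SE 0.16, adjusted p 0.630 in edgeR). Of the 4 beta subunits, CACNB1 had 25.4, 24.3 and 20.7 CPM, then 23.7, 27.1 and 23.7, then 21.6, 29.9 and 24.2, and a log2 fold change of 0.10 (SE 0.14, adjusted p 0.721 in edgeR). CACNB4 had a log2 fold change of -0.57 (adjusted p 0.153 in edgeR), with its pools of HH17-18 below those of HH13-14. In edgeR it passed without replicate 1 of HH15-16 (adjusted p 0.0461).

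Besides CACNG3, the gamma subunits were CACNG5 and CACNG4. CACNG5 had 24.9, 22.8 and 23.2 CPM, then 31.1, 21.2 and 16.3, then 19.5, 10.2 and 18.3, so that HH17-18 lay below HH13-14. Its log2 fold change was -0.56 (SE 0.26, adjusted p 0.245 in edgeR), and that of CACNG4 was -0.01.

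HCN4, the main pacemaker channel of the heart, had 2.42, 3.12 and 2.53 CPM at HH13-14, 2.45, 2.5 and 2.34 at HH15-16, and 1.01, 1.74 and 1.34 at HH17-18. All pools of HH17-18 lay below all others. The log2 fold change of -0.98 (SE 0.25) just missed the threshold in the main edgeR fit (adjusted p 0.0531). HCN4 passed in DESeq2 (adjusted p 0.00137) and in voom with sample weights (adjusted p 0.0194). In edgeR it passed on lane 7 alone and without replicate 1 of HH15-16. HCN2, a channel of many neurons, had 4.70, 5.57 and 6.38 CPM, then 4.60, 7.43 and 5.83, then 5.28, 8.76 and 8.17. Its stages overlapped (log2 fold change 0.42, SE 0.24, adjusted p 0.358 in edgeR).

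Potassium channel genes were 63 of the 93, and 7 of them (11.1%) passed the threshold, 2 higher and 5 lower. Of all genes tested 4.51% passed, 2.40% higher and 2.12% lower. In log2 fold change 30 of the 63 lay above 0, and the median was -0.04. Among the 21 voltage-gated alpha subunits, KCNA1 had the highest log2 fold change, at 1.07. KCNH6, of the family of the delayed rectifier of the heart, had the most reads, with 19.8, 22.2 and 22.6 CPM, then 21.2, 18.7 and 20.6, then 17, 22.6 and 23.6. Its stages overlapped, with a log2 fold change of -0.03 (SE 0.14, adjusted p 0.924 in edgeR). Summed over the 21 genes the level was 133 ± 3.57 CPM at HH13-14, 134 ± 12.2 at HH15-16 and 124 ± 12.7 at HH17-18 (SD, n = 3).

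KCNQ3, a subunit of the M-type channel of neurons, had a log2 fold change of 0.85 (adjusted p 0.0955 in edgeR). It passed in DESeq2 (adjusted p 0.0203) and in voom with sample weights (adjusted p 0.0352). KCNQ3 had 1.81, 1.89 and 1.86 CPM at HH13-14 and 4.06, 2.25 and 3.72 at HH17-18, which did not overlap. KCNQ1, known from heart and epithelia, had 0.70 (adjusted p 0.119 in edgeR), with 1.66, 1.57 and 1.86 CPM at HH13-14, 1.60, 1.16 and 1.42 at HH15-16, and 2.39, 3.29 and 2.62 at HH17-18. DESeq2 passed KCNQ1 between the outer stages (adjusted p 0.0345).

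Of the Shaker-type pores that KCNAB1 can bind, KCNA1 had 3.26, 3.31 and 3.45 CPM at HH13-14, 8.42, 8.69 and 2.52 at HH15-16, and 10.4, 4.0 and 6.61 at HH17-18. HH17-18 lay above HH13-14, but its spread was wide, and the log2 fold change of 1.07 (SE 0.44) had an adjusted p of 0.193 in edgeR. KCNA2 and KCNA3 had 0.10 and -0.06. KCNAB2, another beta subunit, had 41.1, 37.7 and 36.8 CPM, then 33.0, 31.1 and 37.0, then 35.9, 38.6 and 44.1, and a log2 fold change of 0.04 (SE 0.11, adjusted p 0.880 in edgeR). The difference between KCNAB1 and KCNAB2 was not tested.

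The 10 auxiliary subunits had 1 gene past the threshold (10%), KCNAB1, where 4.51% of all genes passed. KCNIP1, a calcium sensor that binds transient potassium channels, had 2.19, 2.11 and 2.66 CPM, then 4.17, 1.65 and 1.5, then 1.38, 0.402 and 2.5, with overlap and a log2 fold change of -0.70 (SE 0.56, adjusted p 0.517 in edgeR). RefSeq places KCNMB1 inside the span of KCNIP1, and KCNJ1 inside that of KCNJ5. The strand setting of the counting is not given in the sources used here, so reads of such pairs may be shared.

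The 8 modifier subunits, which do not form channels alone, had 0 genes past the threshold in edgeR, while DESeq2 passed KCNS2. At an unadjusted p under 0.05 in edgeR there were 2 (25%), where 21.6% of all genes passed. KCNS2 had 1.64, 1.72 and 1.06 CPM, then 1.65, 1.42 and 1.84, then 2.62, 1.97 and 6.17. A single pool, replicate 3 of HH17-18, carried much of its log2 fold change of 1.28 (SE 0.40, adjusted p 0.102 in edgeR), and without it the value was 0.625. KCNG3 had 5.40, 6.0 and 4.94 CPM, then 8.43, 5.74 and 7.42, then 7.28, 8.39 and 7.42, with HH17-18 above HH13-14 (log2 fold change 0.50, SE 0.18, adjusted p 0.142 in edgeR).

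Among the 6 calcium- or sodium-activated channels KCNN3 was the only one past the threshold (16.7%, where 4.51% of all genes passed). KCNN1, a close relative, had 41.6, 37.7 and 43.0 CPM, then 41.9, 34.4 and 32.9, then 42.9, 33.1 and 55.7, with overlap (log2 fold change 0.10, SE 0.17, adjusted p 0.771 in edgeR). KCNMA1, the large-conductance channel, had -0.61 (adjusted p 0.182 in edgeR), and the sodium-activated KCNT1 and KCNT2 had 0.06 and 0.04.

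The 9 inward rectifiers held 3 of the 9 calls, KCNJ2 and KCNJ8 higher and KCNJ3 lower. This is 33.3% of the class, where 4.51% of all genes passed. Their summed level was 36.3 ± 2.76 CPM at HH13-14, 38.6 ± 4.50 at HH15-16 and 49.1 ± 7.27 at HH17-18 (SD, n = 3). Without KCNJ2 the other 8 summed to 29.7 ± 1.64, 27.0 ± 1.04 and 28.8 ± 0.131 CPM, so the class sum was higher only with KCNJ2 included. Those 8 held both rises and falls. Between the means of the outer stages KCNJ8 went from 2.72 to 5.14 CPM and KCNJ3 from 11.8 to 7.65 CPM. KCNJ16 and KCNJ12, other inward rectifiers, had pools of HH17-18 above those of HH13-14 and log2 fold changes of 0.92 and 0.72, with adjusted p-values from edgeR of 0.108 and 0.142. DESeq2 passed KCNJ16 between the outer stages (adjusted p 0.0281). KCNJ5, which combines with KCNJ3 in the heart, had -0.33 (adjusted p 0.264 in edgeR). KCNJ11, the pore of the ATP-sensitive channel of pancreas and neurons, had -0.49 (adjusted p 0.428 in edgeR).

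The 9 tandem-pore-domain channels, which pass a leak current, had 0 genes past the threshold in the main edgeR fit and in DESeq2. At an unadjusted p under 0.05 there was 1 (11.1%), where 21.6% of all genes passed. KCNK2, which responds to stretch, had 35.3, 36.9 and 35.0 CPM, then 29.1, 38.5 and 53.9, then 37.3, 55.8 and 38.1 (log2 fold change 0.29, SE 0.21, adjusted p 0.469 in edgeR). KCNK17 had 0.517, 0.262 and 0.319 CPM, then 0.119, 0.780 and 0.847, then 0.812, 1.55 and 1.11. Its outer stages did not overlap, and the log2 fold change of 1.64 had an SE of 0.60 (adjusted p 0.145 in edgeR), from 383 counts in all. It passed in edgeR with only the stages compared and without replicate 1 of HH15-16. KCNK9, an acid-sensitive channel, had 0.533, 0.935 and 0.673 CPM, then 0.307, 0.636 and 0.651, then 0.460, 0.256 and 0.470. HH17-18 lay below HH13-14 for KCNK9, at a log2 fold change of -0.84 (SE 0.42, adjusted p 0.277 in edgeR).

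The outer stages did not overlap in 21 channel genes that were higher (22.6%) and 13 that were lower (14.0%), where 16.0% and 15.4% of all genes were so. Within a stage the channel genes varied least at HH13-14, with a median coefficient of variation of 12.7%, against 23.9% at HH15-16 and 23.3% at HH17-18. This coefficient was taken over the channel genes only. The pools themselves were also closest at HH13-14, where pairs gave chi-square values of 10.8 to 15.4 per degree of freedom. Pairs gave 30.4 to 63.1 at HH15-16 and 26.7 to 45.4 at HH17-18. The lower spread at HH13-14 is therefore not shown to be particular to channel genes. The 93 genes summed to 791 ± 16.9 CPM at HH13-14, 818 ± 7.50 at HH15-16 and 833 ± 44.2 at HH17-18 (SD, n = 3). The sums of HH13-14 and HH17-18 differed by less than the SD of the latter and more than that of the former. Their pools overlapped (772 to 803 and 794 to 881 CPM). All pools of HH15-16 (810 to 825 CPM) lay above all pools of HH13-14. These sums were not tested.

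The steps between neighbouring stages gave no channel gene past the threshold in edgeR. They share the pools of HH15-16, so their values are not independent. For the earlier step 3 of 93 had an unadjusted p under 0.05 (CACNG3, KCNJ3 and KCNG3), where 10.1% of all genes did and 0 passed the adjusted threshold. DESeq2 passed 1 (1.08%), CACNG3, where it passed 0.630% of all genes, and voom 0. For the later step 16 of 93 had an unadjusted p under 0.05, where 9.32% of all genes did and 0.0790% passed the threshold. The smallest unadjusted p of the later step was that of KCNQ1, at a log2 fold change of 0.99 (SE 0.24, adjusted p 0.211 in edgeR). DESeq2 passed 6 in this step (6.45%), namely KCNQ1, KCNJ16 and KCNJ8 higher and KCNAB1, KCNH5 and HCN4 lower, where it passed 1.99% of all genes, and voom passed 0.

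By the test of any stage effect 0 channel genes passed in edgeR and 25 had an unadjusted p under 0.05, where 1.30% and 16.7% of all genes did. The smallest adjusted p was 0.0511, that of KCNAB1. DESeq2 and voom passed 15 (16.1%) and 12 (12.9%), where they passed 7.60% and 5.63% of all genes. The difference between the later and the earlier step gave 0 channel genes in edgeR, DESeq2 and voom, and 5 at an unadjusted p under 0.05, against 0.00564% and 4.36% of all genes. The 5 were CACNG3, KCNIP2 and KCNMB4, with values of -1.30, -0.98 and -1.11, and KCNAB2 and KCNQ1, with 0.43 and 1.28, each with an adjusted p of 0.932 in edgeR.

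Several channel genes lie side by side in the chick genome. On chromosome 7 of GRCg7b SCN2A (19439332 to 19512749) and SCN3A (19518752 to 19592053) are 6002 bases apart, with log2 fold changes of 1.24 and 1.21 over the interval, and SCN9A lies 273682 bases before SCN2A. On chromosome 18 KCNJ16 ends 12318 bases before KCNJ2, and their log2 fold changes were 0.92 and 1.63. SCN4B and SCN2B, 1882 bases apart on chromosome 24, had 0.77 and 0.67. Other neighbours had unlike values: CACNA2D4 and CACNA1C on chromosome 1, 63122 bases apart, had 0.25 and 1.34, and KCNK17 and KCNK5 on chromosome 3, 65058 bases apart, had 1.64 and 0.17. These pairs are given as a description, with no test.

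Partners of the channels that are not channel genes of the pattern were counted from a list of 32 symbols, of which 22 were in the table and tested. None passed the threshold in edgeR, and 6 had an unadjusted p under 0.05 (27.3%, where 21.6% of all genes did), 4 higher and 2 lower. The median log2 fold change was 0.10, and the values ran from -0.66 for FGF14, a factor that binds sodium channel tails, to 1.16 for PEX5L, which binds HCN channels and was at a mean of 0.207 CPM. ANK3, the scaffold that holds sodium channels at the axon initial segment, had 90.6, 80.5 and 67.1 CPM on average over the stages (log2 fold change -0.43, adjusted p 0.0861 in edgeR). ANK2 had 35.7, 39.3 and 58.4 CPM (0.71, adjusted p 0.0747 in edgeR). REST, a repressor that keeps neuronal genes such as SCN2A silent in other cells of mammals, had 64.3, 72.0 and 68.3 CPM (0.09, adjusted p 0.687 in edgeR).

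The level floor left out 22 of the 115 matching rows. Just inside it were KCNJ6 at 0.519, KCNG1 at 0.525 and KCNK9 at 0.547 CPM, and just outside were CACNG2 at 0.435, SCN4A at 0.345 and CACNA1I at 0.336 CPM. All 93 members were kept by the filter on low counts, as were 9 of the 22, and 0 of these 9 passed the threshold. KCNV2 and KCNK16 had 0 counts in all 9 pools, which allows up to 0.00551 CPM each over the summed pools by counting error alone. SCN11A, known from sensory neurons of mammals, had a mean of 0.0815 CPM.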

How the data were processed

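The authors deposited whole-number counts per gene for 18 libraries, with Ensembl identifiers and, for part of the rows, a symbol (15860 had none). Per the submitters' processing notes, Trim Galore, HISAT2, featureCounts and the build GRCg7b were used. The versions, annotation release and strand setting are not given in the sources used here. Column names gave the sample of all 18 columns (0 unused).

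The technical replicates (lanes 7 and 8) were summed, giving n = 3 pools per stage. They differed by a chi-square statistic per degree of freedom of 2.09 to 2.25, against 10.8 to 63.1 between pools of a stage. The filterByExpr function of edgeR 4.0.16 (R 4.3.3) kept 17724 of 30108 genes, sizes were scaled by TMM (trimmed mean of M-values), and all 9 pools entered 1 quasi-likelihood fit with no covariate. CPM were computed with the scaled sizes and are not corrected for gene length, so levels are compared within a gene or class over stages. Tests were two-sided, with Benjamini-Hochberg adjustment over all genes tested at 0.05. The SE is the one implied by the test statistic. Alternatives were run with DESeq2 1.42.0 and limma 3.58.1. The procedure was also run on simulated counts with 200 genes changed, in which all genes and pools shared a single spread. Unlike spread between pools, as in these data, was not simulated.

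Members, gene lists, classes and tests were chosen with earlier results of these data known. Full values are given for members past the threshold in any test, the 5 that changed most in either direction between the outer stages (log2), and the member with the most reads in each class. Other members may be named with values. The values of some genes, 1 of them past the threshold, are not reported here, though counts and sums include them. Symbols were matched to RefSeq for positions (90 of 93 members). A further 6 symbols of the pattern in RefSeq, which no row carries, were not analysed here.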

Additional observations from a re-analysis of the deposited data

How the results depend on the processing

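For HH17-18 against HH13-14 the 9 channel genes past the threshold became 18 with the DESeq2 test, 14 with voom and sample weights and 0 at an adjusted p under 0.01. Without 1 replicate they ran from 0 to 14, and the fits without a pool of HH13-14 gave at most 1. The other settings gave 6 to 12 (6.45% to 12.9%), where 3.55% to 8.09% of all genes passed. The earlier step (0) gave 1 with DESeq2, and the later step (0) gave 6 with DESeq2, with 0 without any 1 replicate. The stage effect (0) gave 15 with DESeq2 and 12 with voom. In edgeR it gave 5 with no filter (5.38%), 1 with DESeq2 size factors (1.08%) and 1 on lane 7 (1.08%). Of all genes 2.03%, 1.39% and 1.15% passed in these fits. The fits without 1 replicate gave 0 to 6 (at most 6.45%), where 0.126% to 3.34% of all genes passed. For the later step minus the earlier one the count stayed at 0 in all settings run. Causes were not tested.

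A replicate block by number gave 8 channel genes over the interval (8.60%, where 4.94% of all genes passed). For the stage effect it gave 2 (2.15%, where 1.88% of all genes passed). Pools that share a number deviated from their stage means with an r of -0.0633 to 0.303 over 9 pairs (mean 0.0658). Pools with different numbers gave -0.399 to 0.322 over 18 pairs (mean -0.0332). These ranges overlap, and the numbers were not taken to pair the pools. A mean CPM floor of 1 left 81 members.

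Of 467 recomputed log2 fold changes of 26 genes, 392 kept direction and side, 57 lost the threshold, 11 gained it and 7 reversed. All 7 were fits without 1 replicate, which ran from -0.171 to 0.024 for CACNA1G, -0.037 to 0.203 for CACNB1, -0.116 to 0.271 for KCNN1, -0.064 to 0.101 for KCNAB2 and -0.134 to 0.103 for KCNH6. KCNK17 could not be tested with at least 10 counts in every pool. The SE of the log2 fold change between the outer stages had a median of 0.42 (0.27 to 0.60) in the 12 members under 1 CPM and of 0.26 (0.10 to 0.56) in the other 81.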
